A study of Homo sapiens with 6 samples.

Results

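The urea cycle and the enzymes and carriers that feed it were followed in Huh-7, an established human hepatocellular carcinoma line, after overexpression of ALKBH5, the enzyme that erases the mark N6-methyladenosine (m6A) from messenger RNA. The set holds 10 genes of the 18030 in the expression tables, taken by name: CPS1, OTC, ASS1, ASL, ARG1, ARG2, NAGS, SLC25A13, SLC25A15 and GLUL. They are represented by 34 of the 80668 listed RefSeq transcripts. RNA-seq libraries came from 3 oeALKBH5 samples, given an ALKBH5 expression plasmid by electroporation with 3 pulses of 1250 V and 20 ms, and from 3 control samples of the same line. Per the labels' protocols, RNA was taken 60 h after electroporation, and an mRNA library kit was used. The same protocol text stands beside the controls while the design calls them parental cells, so whether the controls were electroporated or carried an empty plasmid is not stated. The labels number the replicates as biological without saying whether each had its own culture or transfection, so the p-values reflect only how these libraries vary, and that variation may be technical.

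Liver cells dispose of ammonia along 2 routes. In the urea cycle, mitochondrial ammonia and bicarbonate become carbamoyl phosphate, which is joined to ornithine to give citrulline, and cytosolic enzymes then build arginine and split it to urea and ornithine. The other route fixes ammonia onto glutamate to make glutamine, and in the liver lobule it belongs to perivenous hepatocytes, while the urea cycle is richest around the portal vein. Hepatoma lines commonly keep only part of this hepatocyte program.

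The libraries held 18607084 to 18826479 estimated counts in oeALKBH5 and 19265686 to 19378030 in control. ALKBH5 itself stood at 169, 133 and 110 CPM (counts scaled to library depth, with TMM factors) in oeALKBH5, against 70.6, 74.2 and 75.5 CPM in control, a log2 fold change of 0.90 (SE 0.177, adjusted p = 0.0154 with edgeR). It no longer passed when control replicate 2 (adjusted p = 0.0529) or control replicate 3 (adjusted p = 0.0589) was left out. Of 10 hepatocyte markers 10 fell, with a summed level of 22780 to 24510 CPM in oeALKBH5 against 34730 to 35380 CPM in control. ALB, serum albumin, averaged 5462 CPM in oeALKBH5 and 7814 CPM in control. Among lists for other cell types, fibroblast and stellate markers summed to 37.1 to 37.6 CPM in oeALKBH5 and 31.0 to 32.8 CPM in control, with 2 higher and 1 lower of 8 tested. Endothelial markers summed to 13.2 to 14.6 CPM in oeALKBH5 and 18.9 to 22.8 CPM in control, with 1 lower of 2 tested. Most of the sum was PECAM1, the lower gene, which averaged 11.2 CPM in oeALKBH5 and 18.2 CPM in control. CDH5 and VWF were below 1 CPM. Macrophage and leukocyte markers summed to 365 to 401 CPM in oeALKBH5 and 354 to 362 CPM in control, mostly through CD68 and LYZ, with 1 lower of 6 tested. Cholangiocyte markers summed to 394 to 430 CPM in oeALKBH5 and 488 to 496 CPM in control, with 3 higher and 3 lower of 9 tested. Over all tested genes, 20.8% passed higher and 22.0% lower. The part of the marker shifts in the results below was not tested. In bulk RNA, fewer cells of a type and less RNA per cell cannot be told apart.

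All 10 genes passed the filter on low counts. In oeALKBH5 cells 6 of them fell, CPS1, OTC, ASS1, ASL, SLC25A13 and GLUL, and 1 rose, ARG1. ARG2, NAGS and SLC25A15 did not pass the test. Over all 14168 genes tested with edgeR, 42.8% passed at an adjusted p under 0.05, 20.8% higher and 22.0% lower. The libraries of the groups did not overlap for 7 of the 10 genes, and for 52.8% of all tested genes. The median log2 fold change of the 10 was -0.30, against 0.0062 for all tested genes. For the 10 hepatocyte markers it was -0.48, so a fall of this size was not particular to the set. The 7 calls also passed with limma on the authors' FPKM values (a level scaled by transcript length and depth), where 45.9% of 12016 genes passed, 29.4% higher and 16.5% lower. That test took genes at 1 FPKM or more in 3 libraries. OTC met this through control, at 1.83, 1.67 and 1.77 FPKM, against 0.7, 1.02 and 0.75 FPKM in oeALKBH5. Its FPKM call is therefore no independent support.

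By FPKM, which allows levels of different genes to be set side by side, the order was GLUL, ASS1, ASL, SLC25A13, ARG1, SLC25A15, NAGS, ARG2, CPS1 and OTC in both groups. GLUL averaged 91.4 ± 6.39 FPKM in oeALKBH5 and 107.7 ± 0.07 FPKM in control (SD, n = 3 each). OTC, at the other end, averaged 0.823 ± 0.172 FPKM in oeALKBH5 and 1.76 ± 0.0808 FPKM in control. The libraries of CPS1 and OTC overlapped in both groups, so their order is not resolved, and those of SLC25A13 and ARG1 overlapped in oeALKBH5. Among genes with an FPKM above 0 in at least 1 library, GLUL stood at percentile 95.1 in oeALKBH5 and 95.8 in control, and ASS1 at 93.1 in oeALKBH5 and 94.7 in control. CPS1, which hepatocytes express among their most abundant mitochondrial enzymes, stood at percentile 33.3 of the same genes in oeALKBH5 and 39.6 in control. Per length, RNA of glutamine synthetase and of the cytosolic enzymes of the cycle was more abundant in these cells than RNA of the mitochondrial enzymes CPS1 and OTC.

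**Figure D1:**
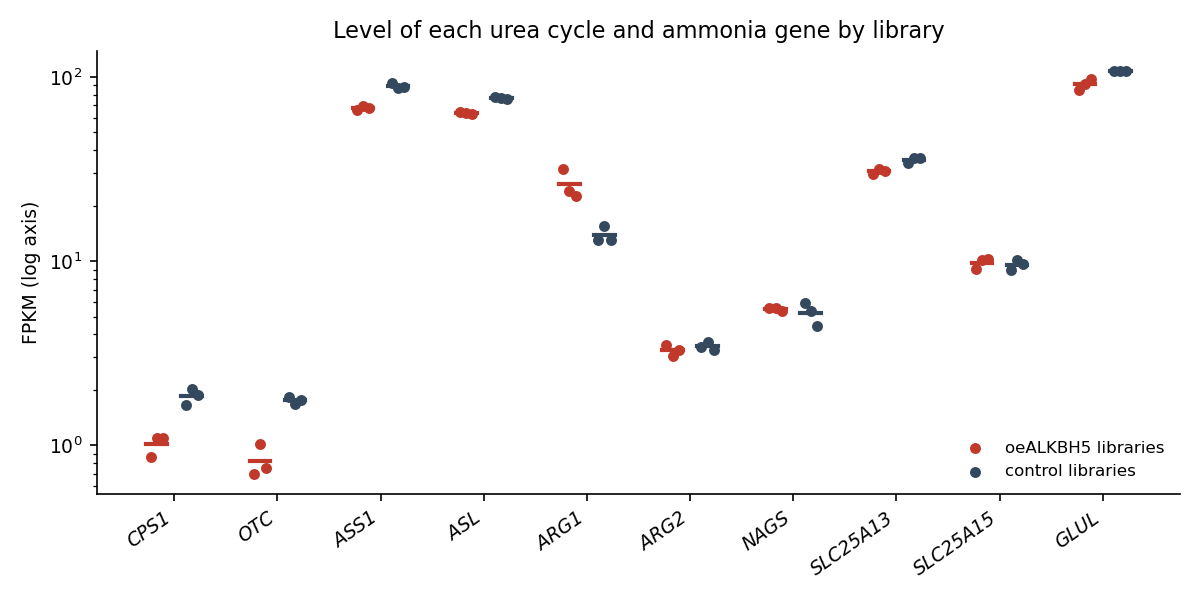
FPKM on a log axis of the 10 genes in each library, with oeALKBH5 points left of control points and bars at the group means (n = 3 each). GLUL, ASS1 and ASL lie highest and CPS1 and OTC lowest, and of the 7 genes whose libraries do not overlap in CPM, ARG1 is the 1 that is higher in oeALKBH5.

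CPS1 and OTC, the mitochondrial enzymes that start the cycle, fell the furthest of the 10 on the log2 scale. CPS1 makes carbamoyl phosphate from ammonia and bicarbonate, and is the rate-limiting enzyme of the cycle. The gene (Entrez 1373) lies at chr2:210477682-210679107 (GRCh38, plus strand, annotated by GENCODE release 29). Its level was 4.73, 6.02 and 6.11 CPM in oeALKBH5, against 9.73, 11.6 and 10.9 CPM in control, from 91 to 117 counts per library in oeALKBH5 and 181 to 220 in control. Every oeALKBH5 library lay below every control library. The log2 fold change was -0.93 (SE 0.119, 95% interval -1.18 to -0.69, adjusted p = 3.48e-06 with edgeR), a 1.91-fold lower level. In FPKM, CPS1 averaged 1.01 ± 0.133 in oeALKBH5 and 1.85 ± 0.176 in control (SD, n = 3 each).

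OTC (Entrez 5009, chrX:38352545-38421450, plus strand), which joins carbamoyl phosphate to ornithine to form citrulline, rested on few reads. It had 18, 28 and 17 counts in oeALKBH5, or 0.936, 1.45 and 0.887 CPM, against 52, 44 and 45 counts in control, or 2.79, 2.32 and 2.39 CPM. The groups did not overlap, although replicate 2 of oeALKBH5 stood apart from the other oeALKBH5 libraries. The log2 fold change was -1.19 (SE 0.232, 95% interval -1.67 to -0.71, adjusted p = 3.63e-04 with edgeR), a 2.28-fold lower level. The interval is the widest of the 10 genes, so the size of the fall is known only loosely.

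NAGS (Entrez 162417, chr17:44004546-44009063, plus strand) makes N-acetylglutamate, the activator that CPS1 requires. It stood at 11.1, 11.1 and 10.8 CPM in oeALKBH5, against 12.5, 11.1 and 9.29 CPM in control. The oeALKBH5 libraries lay inside the range of the controls. The log2 fold change was 0.0018 (SE 0.105, 95% interval -0.22 to 0.22, adjusted p = 0.991 with edgeR), an interval that leaves room for shifts of up to 0.22 in either direction.

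ASS1 and ASL, the cytosolic enzymes that build arginine from citrulline and aspartate, both fell, by less than the mitochondrial pair but with tighter replicates. ASS1, argininosuccinate synthase (Entrez 445, chr9:130444929-130501274, plus strand), stood at 96.2, 100.1 and 99.2 CPM in oeALKBH5, against 143, 133 and 135 CPM in control. Its libraries were far apart relative to their spread, with a log2 fold change of -0.48 (SE 0.0476, adjusted p = 1.48e-07 with edgeR) and a 1.39-fold lower level. ASL, argininosuccinate lyase (Entrez 435, chr7:66075798-66093558, plus strand), stood at 133, 130 and 131 CPM in oeALKBH5, against 169, 165 and 163 CPM in control. Its log2 fold change was -0.34 (SE 0.0446, adjusted p = 5.91e-06 with edgeR), 1.26-fold lower, with no overlap. An exon of ASL shares 115 nt with the protein-coding gene AC068533.4 on the same strand, so reads from that stretch cannot be assigned with certainty. RefSeq names 14 ASS1 pseudogenes and 1 of ASL, none of them listed in the expression tables, so reads of such copies could be counted with the parent gene.

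The liver arginase moved the other way. ARG1 (Entrez 383, chr6:131573144-131584332, plus strand), the cytosolic enzyme that splits arginine into urea and ornithine, stood at 42.8, 32.6 and 30.8 CPM in oeALKBH5, against 18.8, 22.1 and 18.8 CPM in control. All 3 oeALKBH5 libraries lay above the controls, and replicate 1 was the highest of them. The log2 fold change was 0.83 (SE 0.127, 95% interval 0.55 to 1.12, adjusted p = 6.08e-04 with edgeR), a 1.78-fold higher level. On FPKM the level was 26.1 ± 4.86 in oeALKBH5 and 13.8 ± 1.40 in control (SD, n = 3 each). Replicate 1 of oeALKBH5 also had the highest ALKBH5 level and the lowest CPS1, ASS1, SLC25A13 and GLUL levels of its group. Among the other genes that fell, its ASL level was the highest of the group and its OTC level was not the lowest. This is a description of 3 libraries and was not tested.

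ARG2 (Entrez 384, chr14:67619798-67651720, plus strand), the mitochondrial arginase found in many tissues, did not pass. It stood at 6.39, 5.45 and 6.0 CPM in oeALKBH5, against 6.61, 6.97 and 6.32 CPM in control, and the groups overlapped. The log2 fold change was -0.16 (SE 0.118, 95% interval -0.40 to 0.09, adjusted p = 0.298 with edgeR). Exons of ARG2 share 767 nt with VTI1B on the opposite strand, and the strand setting of the counting is not given in the sources used here, so reads from that stretch cannot be assigned with certainty. VTI1B, a vesicle fusion protein, had a log2 fold change of 0.04 (SE 0.0498, adjusted p = 0.549 with edgeR).

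Of the mitochondrial carriers, the aspartate exporter fell and the ornithine carrier did not pass. SLC25A13, called citrin (Entrez 10165, chr7:96120220-96322147, minus strand), exchanges mitochondrial aspartate for cytosolic glutamate and so supplies ASS1. It stood at 89.0, 93.8 and 92.8 CPM in oeALKBH5, against 109, 113 and 115 CPM in control. The groups did not overlap, and the log2 fold change was -0.29 (SE 0.0481, adjusted p = 6.96e-05 with edgeR), 1.22-fold lower. SLC25A15 (Entrez 10166, chr13:40789412-40810111, plus strand) exchanges cytosolic ornithine for mitochondrial citrulline. It stood at 33.2, 36.7 and 38.1 CPM in oeALKBH5, against 34.8, 39.1 and 37.2 CPM in control, with overlapping libraries. Its log2 fold change was -0.04 (SE 0.0666, 95% interval -0.18 to 0.10, adjusted p = 0.668 with edgeR), and with library size as the only scaling the estimate was 0.04. RefSeq names 5 SLC25A15 pseudogenes outside the tables.

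GLUL, glutamine synthetase (Entrez 2752, chr1:182381704-182392206, minus strand), fell as well, so the enzyme of the glutamine route moved in the same direction as most of the urea cycle. It stood at 276, 295 and 321 CPM in oeALKBH5, against 370.0, 364 and 369 CPM in control. The control libraries lay within a few CPM of each other and the oeALKBH5 libraries were spread more widely, all below them. The log2 fold change was -0.31 (SE 0.0509, adjusted p = 7.48e-05 with edgeR), 1.24-fold lower. RefSeq names 6 GLUL pseudogenes outside the tables.

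**Figure D2:**
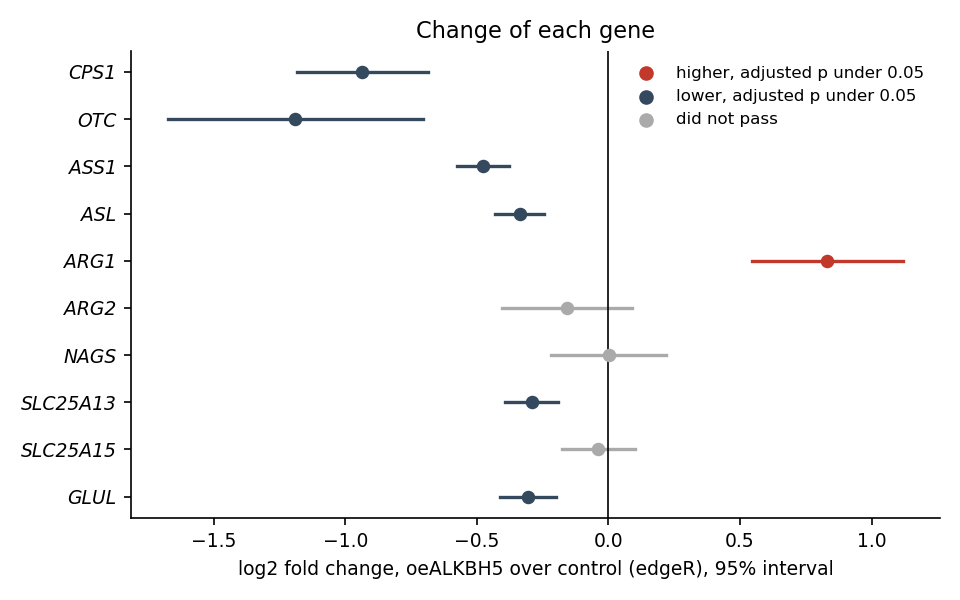
Log2 fold change of each of the 10 genes, oeALKBH5 over control, from the counts with edgeR (points) with 95% intervals (lines); red marks the gene that passed higher, dark blue those that passed lower and grey those that did not pass. ARG1 lies above 0 and 6 genes below it with intervals clear of 0, and the intervals of ARG2, NAGS and SLC25A15 cross 0.

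The balance between genes within a library was compared as 4 ratios. Of all arginase FPKM, ARG1 made up 90.0%, 88.8% and 87.2% in oeALKBH5, against 79.1%, 80.9% and 79.9% in control. The means were 88.7% ± 1.38 in oeALKBH5 and 80.0% ± 0.864 in control (SD, n = 3 each), with no overlap. An exact two-sided permutation test gave p = 0.1, the smallest value that 3 against 3 libraries allow, and 0.133 after Benjamini-Hochberg adjustment over the 4 ratios compared, so none of these ratios could pass 0.05.

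The ratio of GLUL to CPS1, the entry enzymes of the 2 ammonia routes, was 98.6, 84.2 and 89.5 in oeALKBH5, against 64.9, 53.6 and 57.6 in control. The libraries did not overlap. The log2 ratio averaged 6.50 ± 0.115 in oeALKBH5 and 5.87 ± 0.139 in control (SD, n = 3 each), a difference of 0.63 (exact permutation p = 0.1, two-sided, adjusted 0.133). The ratio of ASS1 to ASL was 1.02, 1.09 and 1.07 in oeALKBH5, against 1.19, 1.14 and 1.17 in control, a log2 difference of -0.14 with no overlap (exact permutation p = 0.1). CPS1 to OTC, the mitochondrial pair, gave 1.23, 1.07 and 1.45 in oeALKBH5 and 0.907, 1.2 and 1.06 in control. Those libraries overlapped (exact permutation p = 0.2). With 3 against 3 libraries this permutation test could not have shown a difference between the falls of CPS1 and OTC at 0.05.

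**Figure D3:**
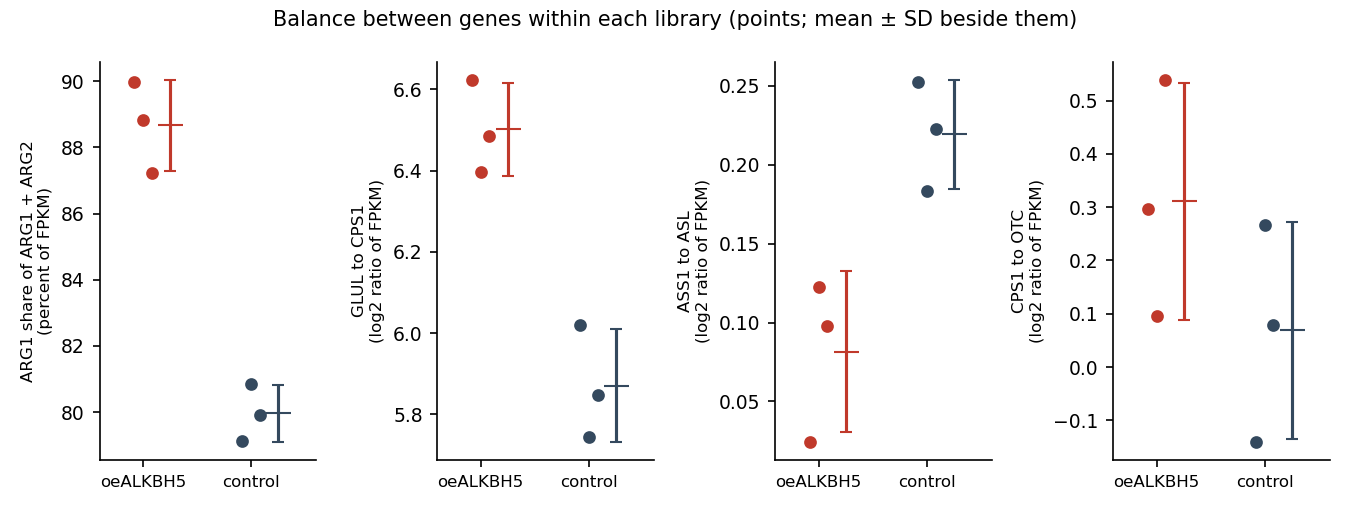
The ARG1 share of arginase FPKM in percent and the log2 ratios of FPKM for 3 gene pairs, 1 point per library, with oeALKBH5 left of control and the mean ± SD beside the points (n = 3 each). The ARG1 share of arginase FPKM and the GLUL to CPS1 ratio lie higher in every oeALKBH5 library, the ASS1 to ASL ratio lies lower, and the CPS1 to OTC ratio overlaps between groups.

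At the level of single RefSeq transcripts far fewer calls were possible: 1.01% of 45502 transcripts passed with edgeR, 0.281% higher and 0.732% lower. The leading transcripts of ASS1 and ASL were among them. NM_054012.4, which carried 95.4% of ASS1 FPKM on average, fell with a log2 fold change of -0.47 (SE 0.0533, adjusted p = 0.0305 with edgeR). NM_000048.4, with 84.9% of ASL FPKM, fell by 0.37 on the log2 scale (SE 0.0351, adjusted p = 0.0202 with edgeR). Both transcript calls were lost when any single library was left out, with adjusted p of 0.0953 to 0.174 for ASS1 and 0.0675 to 0.141 for ASL, unlike the calls for the genes.

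The leading ARG1 transcript, NM_000045.4, had a log2 fold change of 0.86 (SE 0.161) and did not pass (adjusted p = 0.0978 with edgeR). For GLUL, 96.1% of FPKM was assigned to the predicted transcript XM_006711278.2, whose log2 fold change was -0.32 (SE 0.0576, adjusted p = 0.0897 with edgeR). NM_001033044.4, another GLUL transcript, held 3.15% to 4.13% over the 6 libraries. The fall of CPS1 could not be assigned to a transcript: none of its 4 transcripts was above 0 in all 6 libraries, and NM_001369256.1 was above 0 in 4 and NM_001875.5 in 3. The NAGS transcript NM_153006.3 took 87.6%, 93.8% and 84.1% of NAGS FPKM in oeALKBH5, against 79.3%, 80.7% and 83.0% in control. Those shares did not overlap although the level of the gene did, with an exact permutation p = 0.1 (adjusted 0.54 over 9 shares).

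The promoters are shown because the 3 genes with the largest absolute log2 fold change, OTC, CPS1 and ARG1, are also the 3 whose promoters are poorest in G and C. Each stretch runs from 250 bases before to 50 bases after the RefSeq start on GRCh38.p14, and all 10 genes matched. ARG1 (chr6:131572976-131573275, plus strand), CPS1 (chr2:210593105-210593404, plus strand) and OTC (chrX:38352354-38352653, plus strand) are set beside GLUL (chr1:182391741-182392040, minus strand), a GC-rich member. The CPS1 start used by RefSeq lies far inside the longer GENCODE gene, which begins at 210477682. Which start these cells use was not tested, so the GC and letter matches of CPS1 hold for that RefSeq start only. Capitals mark the TATA box letters TATAAA, the CCAAT box and TTNCNNAA, letters held by many C/EBP sites, with the last 2 searched on both strands.
ARG1: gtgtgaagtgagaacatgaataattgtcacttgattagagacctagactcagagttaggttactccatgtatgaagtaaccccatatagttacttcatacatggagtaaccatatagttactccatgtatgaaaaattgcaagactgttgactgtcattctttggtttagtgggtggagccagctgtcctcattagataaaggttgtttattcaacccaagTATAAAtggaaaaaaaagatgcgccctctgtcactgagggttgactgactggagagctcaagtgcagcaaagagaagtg
CPS1: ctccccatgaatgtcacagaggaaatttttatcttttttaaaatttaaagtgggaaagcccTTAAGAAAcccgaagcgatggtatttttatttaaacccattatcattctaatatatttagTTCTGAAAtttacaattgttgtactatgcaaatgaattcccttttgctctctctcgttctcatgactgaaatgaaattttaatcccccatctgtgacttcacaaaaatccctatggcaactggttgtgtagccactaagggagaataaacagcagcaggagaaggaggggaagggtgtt
OTC: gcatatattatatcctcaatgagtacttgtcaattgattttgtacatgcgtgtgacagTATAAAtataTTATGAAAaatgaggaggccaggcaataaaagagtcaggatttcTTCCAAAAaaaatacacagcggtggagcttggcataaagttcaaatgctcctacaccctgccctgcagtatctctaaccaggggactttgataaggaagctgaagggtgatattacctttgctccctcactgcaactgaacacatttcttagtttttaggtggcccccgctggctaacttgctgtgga
GLUL: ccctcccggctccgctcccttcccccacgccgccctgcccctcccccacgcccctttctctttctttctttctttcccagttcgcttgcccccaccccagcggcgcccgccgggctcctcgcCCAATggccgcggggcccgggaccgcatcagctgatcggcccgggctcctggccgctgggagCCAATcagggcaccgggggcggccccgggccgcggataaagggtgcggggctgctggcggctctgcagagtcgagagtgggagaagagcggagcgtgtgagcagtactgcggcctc

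ARG1 is 40.0% G and C with 1 CpG, CPS1 36.7% with 3 and OTC 41.7% with 3, against a median of 65.0% and 25 CpG over the promoters of 11484 tested genes. That puts CPS1, at its internal RefSeq start, at percentile 1.13, ARG1 at 2.66 and OTC at 3.54. GLUL is 72.7% G and C with 29 CpG, at percentile 78.0. The other 6 lie between 64.3% in NAGS and 80.0% in SLC25A15. TATAAA stands 29 bases before the ARG1 start, the usual distance of a TATA box, and 192 bases before the OTC start, and 4.19% of all promoters hold it. TTNCNNAA was found in CPS1 and OTC of the 10 and in 26.5% of all promoters. CCAAT was found in GLUL, ASL, ARG2 and SLC25A13, and in 36.5% of all. A match of letters is a description and says nothing of binding.

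The 3 CpG-poor promoters were singled out after the values were seen, and 2 of the genes fell while 1 rose. Over all tested genes with a promoter, the 427 at or below 41.7% G and C had a median absolute log2 fold change of 0.25, and 38.2% of them passed. The other 11057 had a median of 0.18, and 43.1% passed. A change of 0.8 or more in either direction on the log2 scale was seen for 8.67% of the 427 and 3.55% of the others. Both limits were set with the 3 genes known: 41.7% is the value of OTC, and all 3 changed by more than 0.8. The 3 genes are also counted among the 427, so these shares are a description and no independent support. Expression level was not matched between these classes.

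**Figure D4:**
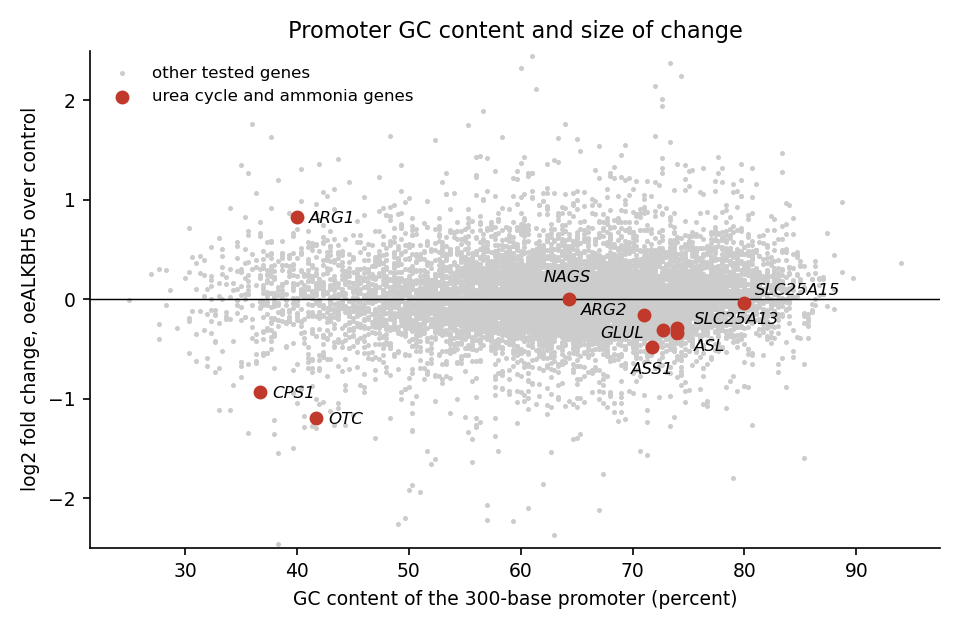
Log2 fold change, oeALKBH5 over control, against promoter GC content in percent for 11484 tested genes (grey), with the 10 genes of the set marked; 7 genes beyond 2.5 in either direction are not drawn. CPS1, OTC and ARG1 lie at the left edge and furthest from 0 among the marked genes, and the other 7 lie at 64.3% or more. The CPS1 value is for a RefSeq start inside the longer gene.

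ALKBH5 acts on methylated adenosines, which writers place mostly in the DRACH context, so the commonest such letters, GGACT in the DNA alphabet, were counted in the principal GENCODE release 29 mRNA of each gene. m6A itself was not measured. All 10 mRNAs hold GGACT, as do 91.6% of 13525 tested mRNAs, and 6 of the 10 hold it within 100 nt of the stop codon, against 22.7% of all. ARG1, the gene that rose, holds 3 copies (1.96 per kb, percentile 89.8), while CPS1 holds 6 (1.03 per kb, percentile 55.6) and GLUL 8 (1.70 per kb, percentile 84.2). The SLC25A15 mRNA, which did not pass, holds 3 at 1.89 per kb, so high densities were found among genes of each outcome. The 6 with GGACT near the stop codon are ARG1, CPS1, SLC25A13 and GLUL, and also NAGS and SLC25A15, which did not pass. OTC, ASS1 and ASL, which fell, hold none there, nor does ARG2. The copy nearest the stop codon is printed for the gene that rose and for 2 that fell, all from those 6, with GGACT in capitals. It begins 54 nt before the first base of the stop codon in ARG1, 52 nt before it in CPS1 and 5 nt after it in GLUL.
ARG1: ggcttgtttcGGACTtgctcgggag
CPS1: ctcgcaaggtGGACTccaagagtct
GLUL: aaaattaagtGGACTagacctccag

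Genes around the cycle were grouped by role. The counts in each list stand beside 20.8% higher and 22.0% lower over all tested genes, and no list was tested as a set. Among glutamine and glutamate enzymes 1 of 13 tested rose and 6 fell, with a list median log2 fold change of -0.14; with library size as the only scaling the counts were 3 and 3. Without oeALKBH5 replicate 1 the list had 3 higher, without control replicate 2 it had 2 higher and 4 lower, and without control replicate 3 it had 4 lower. GLUD1, glutamate dehydrogenase, which releases ammonia from glutamate in mitochondria, averaged 510 CPM in oeALKBH5 and 725 CPM in control (log2 fold change -0.51, SE 0.0496, adjusted p = 1.12e-07 with edgeR). Its near-identical copy GLUD2 makes that assignment uncertain. ASNS, asparagine synthetase, fell by 0.46 on the log2 scale (adjusted p = 1.46e-06 with edgeR). CAD, whose carbamoyl phosphate synthetase works in the cytosol for pyrimidines, rose and averaged 98.2 CPM in oeALKBH5 and 73.6 CPM in control (0.42 log2, adjusted p = 3.99e-06 with edgeR). RNA of the cytosolic enzyme for carbamoyl phosphate was higher while that of CPS1, the mitochondrial one, was lower.

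In a list built around the release of ammonia from amino acids, 2 of 10 tested rose and 7 fell, with a median of -0.24. Not every enzyme in the list releases ammonia itself. With library size as the only scaling 3 rose and 5 fell. HAL, which removes ammonia from histidine, stood at 27.2, 21.9 and 24.2 CPM in oeALKBH5, against 11.4, 10.3 and 10.7 CPM in control, a level 2.26-fold that of control (1.18 on the log2 scale, SE 0.0897, adjusted p = 3.28e-09 with edgeR). CBS, cystathionine beta-synthase, which does not itself release ammonia, rose by 0.29 on the log2 scale (adjusted p = 1.16e-04 with edgeR). DLD and GLDC, both parts of the glycine cleavage system, fell by 0.36 (adjusted p = 3.10e-05 with edgeR) and 0.23 (adjusted p = 5.28e-04 with edgeR).

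Ornithine, proline and polyamine enzymes gave 3 higher and 6 lower of 18 tested, with a median of -0.07. With library size as the only scaling 3 were higher and 4 lower. Leaving out 1 library gave 2 to 3 higher and 5 to 6 lower. OAT, the mitochondrial aminotransferase that draws ornithine out of the cycle, stood at 44.9, 51.4 and 54.0 CPM in oeALKBH5, against 94.6, 92.2 and 100.2 CPM in control. Its groups lay far apart, with a log2 fold change of -0.93 (SE 0.0619, adjusted p = 6.15e-10 with edgeR). SAT1, which acetylates spermidine and spermine for export, fell by 0.56 (adjusted p = 4.25e-09 with edgeR). SMS, spermine synthase, rose by 0.23 (adjusted p = 7.71e-04 with edgeR) and PAOX, a polyamine oxidase, by 0.58 (adjusted p = 0.00262 with edgeR).

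Other users of arginine gave 1 higher and 3 lower of 10 tested, with a median of -0.14. That is close to the 42.8% of all tested genes that passed in either direction. With library size as the only scaling 1 was higher and 2 lower. GATM, the first enzyme of creatine synthesis, fell by 0.30 (adjusted p = 0.00127 with edgeR) and DDAH1, which degrades methylarginines, by 0.28 (adjusted p = 0.00217 with edgeR). NOS3, the endothelial nitric oxide synthase, had a log2 fold change of 0.71 (adjusted p = 0.0106 with edgeR) at 3.27, 2.18 and 2.66 CPM in oeALKBH5, against 1.34, 1.85 and 1.75 CPM in control. It did not pass with oeALKBH5 replicate 1 left out (adjusted p = 0.0549) or with control replicate 1 left out (adjusted p = 0.0675).

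A list of mitochondrial carriers, bicarbonate supply and related enzymes outside the set gave 1 higher and 5 lower of 12 tested, with a median of -0.12. The lower genes included the malate dehydrogenases and fumarase, which are neither carriers nor enzymes of bicarbonate supply. With library size as the only scaling 2 were higher and 5 lower. SLC25A12, called aralar, the aspartate carrier of brain and muscle, averaged 2.79 CPM in oeALKBH5 and 1.79 CPM in control, a log2 fold change of 0.64 (adjusted p = 0.0102 with edgeR). This is opposite in sign to SLC25A13, its liver counterpart, at a much lower level. SLC25A12 did not pass with DESeq2 (adjusted p = 0.0593), nor with control replicate 2 left out (adjusted p = 0.0590). SLC25A18, a glutamate carrier, fell by 0.75 (adjusted p = 4.28e-06 with edgeR), and MDH2, mitochondrial malate dehydrogenase, by 0.27 (adjusted p = 1.05e-04 with edgeR).

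In the transport list 6 of 15 tested genes rose and 3 fell, with a median of 0.11. SLC38A2, a sodium-coupled carrier of small neutral amino acids, averaged 249.4 CPM in oeALKBH5 and 182 CPM in control (log2 fold change 0.46, adjusted p = 1.31e-06 with edgeR). SLC7A5, which imports large neutral amino acids in exchange for glutamine, rose by 0.28 (adjusted p = 5.49e-05 with edgeR). SLC38A3, a glutamine carrier of liver, fell by 0.58 (adjusted p = 2.40e-08 with edgeR), and SLC7A7, a light chain for cationic amino acid exchange, by 0.54 (adjusted p = 4.51e-07 with edgeR).

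Among 18 known regulators of urea cycle genes, 4 rose and 7 fell, with a median of -0.02; with library size as the only scaling 7 rose and 3 fell, so the direction of this list depends on the scaling. KLF15, a factor that drives amino acid catabolism and urea cycle genes in mouse liver, stood at 17.9, 18.01 and 18.7 CPM in oeALKBH5, against 33.7, 31.0 and 35.8 CPM in control. Its log2 fold change was -0.88 (SE 0.0716, adjusted p = 8.56e-09 with edgeR). CTNNB1, beta-catenin, which activates GLUL in perivenous cells, fell by 0.17 (adjusted p = 0.00221 with edgeR) and did not pass with library size as the only scaling (adjusted p = 0.0537). CREB1, the factor of the cyclic AMP response, rose by 0.27 (adjusted p = 7.97e-04 with edgeR), and FOXO3 by 0.22 (adjusted p = 0.00457 with edgeR).

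Among the genes that could be tested, markers of liver zonation outside the set did not move as blocks. CYP2E1, CYP3A4, LECT2, GLS2 and SDS were too low to be tested, and CYP7A1 was not listed. SLC1A2, HSD17B13 and CYP2F1 were tested but averaged below 1 CPM in both groups. The lists therefore cover only part of each zone's genes. Of 10 tested periportal genes 1 rose and 4 fell, with a median of -0.27, led downward by the lipoprotein APOA4 at 2.71 CPM in oeALKBH5 and 12.8 CPM in control (log2 fold change -2.23, adjusted p = 2.93e-11 with edgeR), and CDH1, E-cadherin, fell by 0.26 (adjusted p = 3.51e-04 with edgeR). The periportal gene that rose was HAL. Of 14 tested perivenous genes other than GLUL, 2 rose and 2 fell, with a median of 0.07. That is a smaller share than the 42.8% of all tested genes that passed in either direction. With oeALKBH5 replicate 2, control replicate 1 or control replicate 2 left out, 1 fell, and without oeALKBH5 replicate 3, as with library size alone, 3 rose and 1 fell. The Wnt targets LGR5 and AXIN2 rose by 0.75 (adjusted p = 1.17e-07 with edgeR) and 0.81 (adjusted p = 1.69e-04 with edgeR), whereas GLUL, a target of the same pathway in liver, fell. Other Wnt targets of the list, NKD1, RNF43, ZNRF3, SP5, LEF1 and NOTUM, did not pass. Their log2 fold changes ran from -0.14 for ZNRF3 to 0.43 for LEF1, so Wnt targets did not rise in general. OAT, also perivenous, fell, and so did TBX3, a Wnt-responsive factor, by 0.15 (adjusted p = 0.0304 with edgeR), which was past the threshold in 7 of 14 alternatives.

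**Figure D5:**
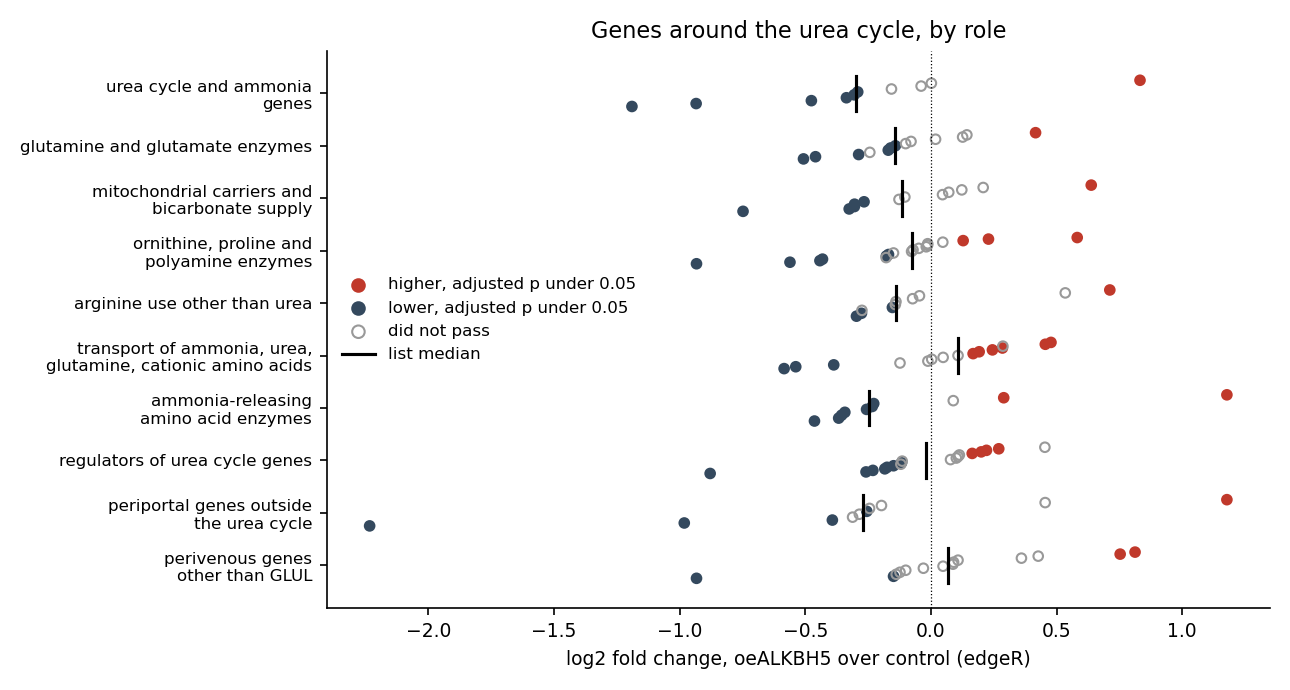
Log2 fold change, oeALKBH5 over control, of each tested gene among the 10 genes (top row) and in the lists around the cycle, with 1 row of points per list, filled (red higher, dark blue lower) where the gene passed with edgeR and open where it did not, and a bar at the list's median. The transport list has its median above 0 at 0.11, as does the perivenous list at 0.07, and the other lists have theirs below 0.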

How the data were processed

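Per the submitters' processing notes, the tools were RSEM 1.2.8, HISAT2 2.1.0 and Bowtie2 2.2.5, on GRCh38.p13; what each did, and whether counting used strand, is not given in the sources used here. For each RefSeq transcript the authors deposited an estimated count and an FPKM value. Both were added up over the transcripts of each Entrez gene, and estimated counts were rounded to whole numbers. Symbols matched for 17878 of 18030 genes, and the other 152 held 0.123% of counts. Every pair of replicates differed by more than counting noise, so all 6 libraries were used.

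Counts were tested with edgeR 4.0.16 (R 4.3.3): TMM scaling, expression filter (minimum count 10), robust quasi-likelihood fit, two-sided, with Benjamini-Hochberg adjustment over all genes and a threshold of 0.05. FPKM values were tested as log2(FPKM + 1) with limma 3.58.1, for genes at 1 FPKM or more in 3 libraries, a scale that understates the change of low genes. Ratios and shares were tested by exact permutation. The scripts were tested on simulated data. Alternatives were other scalings, filters and tools, a block for the replicate number and leaving out each library. The members, lists and alternatives were chosen with earlier results of these data known. Named genes were the 10 members, ALKBH5 and, per list, up to 2 that passed higher and 2 lower, by smallest p. ALB, VTI1B, the other markers, and zonation genes that did not pass or were not tested were named after their values were seen. Promoters are RefSeq's on GRCh38.p14. mRNAs and gene coordinates are from GENCODE release 29 on GRCh38. RNA was sequenced to 18607084 to 19378030 counts per library, which limits genes as low as OTC. Figures were drawn with matplotlib 3.10.9.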

Additional observations from a re-analysis of the deposited data

How the results depend on the processing

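The 7 calls among the 10 genes kept their direction and stayed past 0.05 under every count-based alternative in which they were tested (14 each, and 13 for OTC, which a mean count of 50 removed), and on FPKM under every alternative there. Scaling by library size alone moved the median log2 fold change of all genes to 0.085 and gave 4266 higher and 2047 lower genes, against 2948 and 3114 with TMM; at transcript level it gave 201 higher and 224 lower, against 128 and 333. Leaving out 1 library gave 1 to 33 higher and 5 to 135 lower transcripts. Same-numbered libraries did not deviate together (r of -0.0193, 0.0162 and -0.0123 over 14168 genes), so no pairing was seen. A batch that touches few genes could be missed by this check, and the labels state none. With the replicate block 3128 genes were higher and 3341 lower, the members stayed at 1 higher and 6 lower, the ALKBH5 call was lost (adjusted p = 0.0538 with edgeR), and 0 transcripts passed in either direction, against 3799 at an unadjusted p under 0.05 with edgeR; the ASS1 and ASL transcripts then had adjusted p of 0.255 and 0.189. Estimates near 0 changed sign: SLC25A15 at 0.0400 with library size alone and -0.0834 to 0.0181 with 1 library left out, its transcript NM_014252.4 at 0.0424 and -0.0820 to 0.0201, and NAGS at -0.0043 without the filter and -0.106 to 0.106. On FPKM the ranges with 1 library left out were -0.00873 to 0.0875 for SLC25A15 and -0.0286 to 0.151 for NAGS. Differences in leading transcript share, in percentage points, ran from -20.3 to 11.7 for OTC, -1.2 to 0.777 for ASS1, -0.507 to 2.32 for ARG1 and -8.25 to 2.34 for SLC25A13. The 4 ratios kept their direction under every alternative. Depth limits OTC and the transcripts of CPS1 and OTC. Causes were not tested.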
